A study of Mus musculus with 84 samples.

Results

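In mouse nomenclature Zfp followed by a number is the catalogue name of a zinc finger protein gene. The transcripts described here are the genes so named, without the pluripotency marker Zfp42, whose mean expression over the 4 shLuc DMSO libraries of an RNA lifetime experiment was 5 TPM or more, TPM being the length-corrected share of a transcript in a library, scaled to the same total everywhere. That rule kept 212 of the 373 genes with such a name, out of 50692 genes in the table, where 11130 genes of any name reached the same level. Just inside the limit 9 members had means of 5.08 TPM (Zfp933) to 5.46 TPM (Zfp97), and just outside it 14 genes had means of 4.59 TPM (Zfp82) to 4.998 TPM (Zfp3). The members were thus chosen by their TPM in the shLuc DMSO libraries, so what the transcripts did in shLuc against DMSO is given as a description without a test. Tests are given for the knockdown arms and for the other experiments.

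The cells were mouse embryonic fibroblasts (MEFs) that had received Oct4, Klf4 and Sox2 (OKS) by retroviral infection, together with a further retrovirus that carried a short hairpin, selected with puromycin, and sampled at day 1 of reprogramming towards induced pluripotent stem (iPS) cells. The hairpin was directed at luciferase as control (shLuc), at Ythdf2 or at Ythdf3, and all 3 arms carried the 3 factors. Each arm received 10 µg/ml actinomycin D or its solvent DMSO for 4 h or 8 h, with 2 libraries of polyA RNA for each of the 12 groups (24 libraries). Expression was then followed in untreated OKS cells of the same 3 arms at days 1, 3, 5 and 7 (24 libraries), in embryonic stem (ES) cells of passage 20 to 25 and strain CBA/CaJ X C57BL/6J, iPS cells of passage 5 to 8 and MEFs of passage 2 with each hairpin (18 libraries), and in day 1 OKS cells with shTead2 or shLuc (4 libraries). Each group held 2 libraries that no label ties to separate animals or cultures, so p-values measure the spread between libraries, which may be technical. The transgenes came from viral vectors in a mixed population, and the level of a transcript in bulk RNA cannot tell fewer cells expressing it from less RNA per cell.

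Actinomycin D intercalates into DNA and stops RNA polymerases, so a transcript's level after treatment reflects how much of the RNA made earlier is left. Most Zfp genes encode proteins whose arrays of C2H2 zinc fingers bind DNA. Many of them, the largest class in mammals, also carry a KRAB domain that recruits the corepressor TRIM28 (KAP1) and the histone methyltransferase SETDB1 to silence retroelements and imprinted regions. Messenger RNAs of transcription regulators are known as a short-lived class in mammalian cells. YTHDF2 and YTHDF3 bind N6-methyladenosine in RNA, and YTHDF2 is known to recruit the CCR4-NOT deadenylase to methylated messages. Zinc finger transcripts of the KRAB type occur in clusters of near-identical genes, among which RSEM, the counting tool named in the submitters' processing notes, divides shared reads by estimation, so the values of clustered members are less certain than those of single genes.

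TPM is a share of the RNA in a library and carries no read total, so depth is unknown and every change below is relative to the other transcripts. Genes of 1 TPM or more numbered 13975 to 15205 in the 12 DMSO libraries and 11488 to 13997 in the 12 of actinomycin D. Mitochondrial transcripts made up 2.07 to 3.07% of the total in the DMSO libraries numbered 1 and 4.92 to 5.58% in those numbered 2, against 1.06 to 1.89% and 2.72 to 4.02% in actinomycin D. The part of both in the members' fall was not tested. Libraries numbered 1 stood apart from those numbered 2 within both treatments: the members' median was 8.38 to 11.7 TPM against 13.1 to 14.9 TPM in DMSO and 0.845 to 2.17 TPM against 2.52 to 4.43 TPM in actinomycin D. Ythdf2 stood at 36.9 to 53.9 TPM in the shLuc DMSO libraries and 12.0 to 16.4 TPM in those of shYthdf2, and Ythdf3 at 24.2 to 55.6 TPM against 3.36 to 11.7 TPM in those of shYthdf3. Under actinomycin D Ythdf2 was at 3.54 to 9.48 TPM in shLuc and 4.89 to 9.16 TPM in shYthdf2. No difference was called (log2 difference -0.17 ± 0.25 SE, limma adjusted p = 0.949). Ythdf3 differed by -2.23 on the log2 scale in the same comparison of shYthdf3 with shLuc (limma adjusted p = 0.0538). The 10 fibroblast markers examined summed to 2238 to 3593 TPM in DMSO and 2894 to 4903 TPM in actinomycin D, and 10 pluripotency markers to at most 17.5 and 5.47 TPM.

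In DMSO the 212 transcripts together made up 2689 to 4323 TPM in each of 12 libraries, and in actinomycin D 613 to 1641 TPM in each of 12. The 2 ranges did not overlap, and the ends of both lay in knockdown libraries. No more than 1 member was listed at 0 TPM in any DMSO library, whereas 1 to 48 were at 0 in the actinomycin D libraries, the 48 in the shYthdf3 8 h library numbered 1. The 12 DMSO libraries include the 4 of shLuc that chose the members, and the choice by level leaves few zeros in DMSO. These totals and zeros are therefore a description, with no share of other genes beside them. In shLuc the median member kept 25.3% of its DMSO level after 4 h and 15.6% after 8 h. The median over the genes of 5 TPM or more was 72.2% and 48.9%. On the log2(TPM + 1) scale used for all fits, which understates the change of low transcripts, the members' median change in shLuc was -1.58 at 4 h and -2.22 at 8 h.

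**Figure D1:**
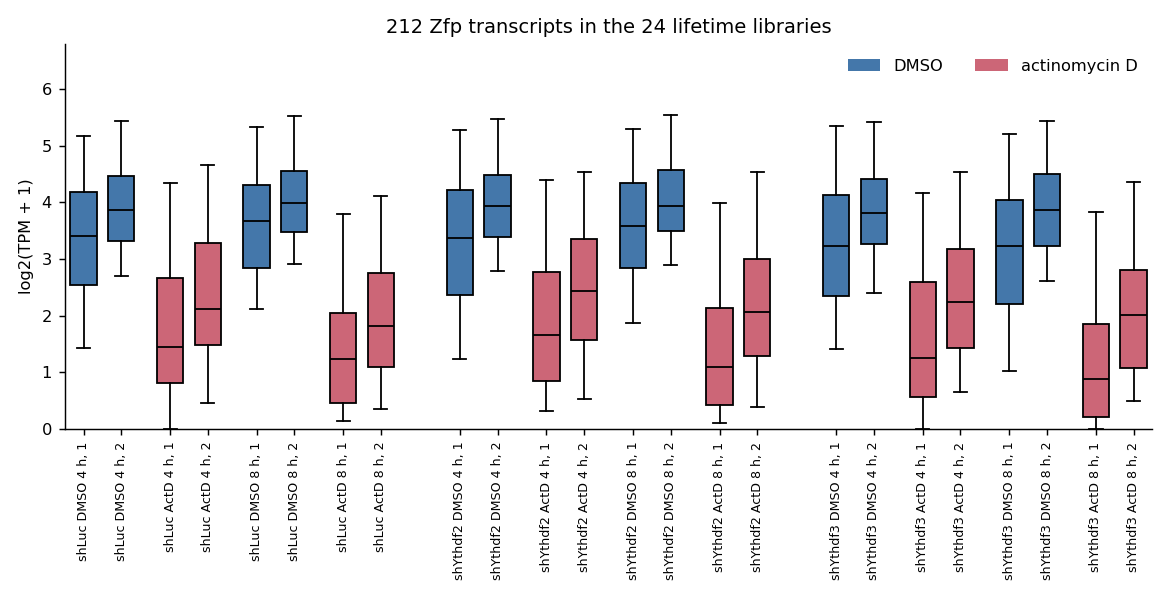
Boxes give log2(TPM + 1) of the 212 Zfp transcripts in each of the 24 lifetime libraries (line, median; box, quartiles; whiskers, 5th to 95th percentile), in DMSO (blue) and actinomycin D (red), with hairpin, hours and replicate number under each box. The median was 8.38 to 14.9 TPM in the DMSO libraries and 0.845 to 4.43 TPM in the actinomycin D libraries.

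In the knockdown arms, whose libraries the choice of members did not use, the transcripts fell in the same direction. After 4 h of actinomycin D 80 of 212 members were called lower in shYthdf2 at an adjusted p under 0.05 by limma and none higher, where 8.43% of all genes tested and 12.9% of genes of 5 TPM or more were called lower and 0.114% of all genes higher. In shYthdf3 91 members were called lower at 4 h and none higher, beside 13% of all genes and 19.8% of genes of 5 TPM or more lower and 0.368% of all genes higher. After 8 h 134 members were lower in shYthdf2 (all genes 25.2%, genes of 5 TPM or more 38.3%) and 128 in shYthdf3 (25.6% and 39%), and none was higher in either arm, where 1.52% and 1.61% of all genes were. These counts are 37.7%, 42.9%, 63.2% and 60.4% of the members, above the share of genes of 5 TPM or more in each comparison. The members' median change was -1.43 and -1.55 at 4 h and -2.11 and -1.85 at 8 h in shYthdf2 and shYthdf3. The median of all 19290 genes tested was -0.25, -0.34, -0.58 and -0.56, and that of genes of 5 TPM or more was -0.33, -0.48, -0.88 and -0.87, in the same order of 4 h and then 8 h.

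Over the 4 contrasts 72 members were called lower in all of them, 22 in 3, 28 in 2, 23 in 1 and 67 in none. The 72 were 34% of the members, where 11.3% of genes of 5 TPM or more and 7% of all genes were called lower in all 4. Without any model, the 4 actinomycin D libraries of shYthdf2 all lay under its 4 DMSO libraries for 136 members (64.2%), beside 26.6% of all genes and 37% of genes of 5 TPM or more. In shYthdf3 the same held for 133 members (62.7%), beside 27.2% and 39.8%. No member was higher in all 4 actinomycin D libraries in either arm, where 2.43% and 2.89% of all genes were. The limma calls above are from a fit that left out the pairing of same-numbered libraries. With replicate number as a block, which that pairing allows, the counts at 4 h rose to 134 in shYthdf2 and 156 in shYthdf3. Here and below, member counts under an alternative setting stand without the share of all genes under that setting. A rise or fall in them is thus no measure of members against other genes. Leaving out the actinomycin D library numbered 1 lowered the 4 h counts to 36 and 54 and the 8 h count in shYthdf3 to 85, leaving out the DMSO 4 h library numbered 2 lowered the 4 h counts to 43 and 55, and with median-ratio scaling in place of TPM the 4 h count in shYthdf2 was 53.

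**Figure D2:**
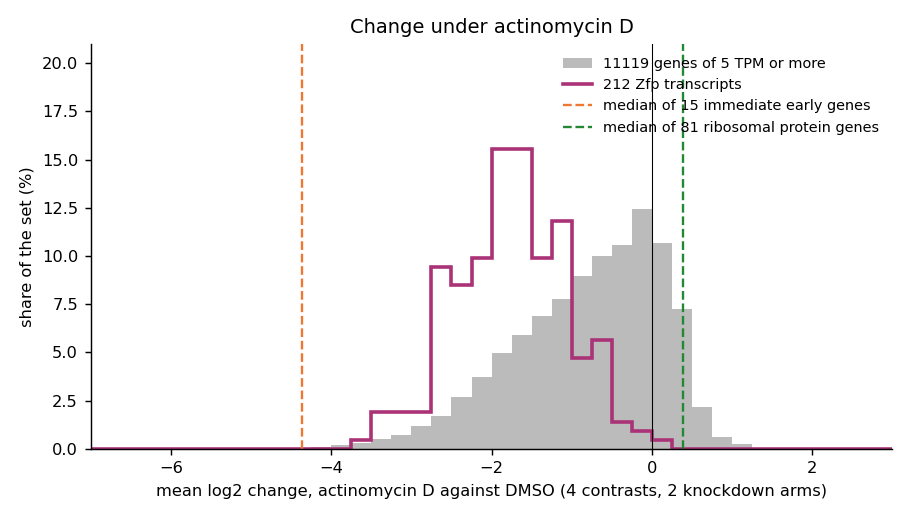
The mean log2 change in 4 contrasts of actinomycin D with DMSO (4 h and 8 h, shYthdf2 and shYthdf3) is on the x axis and the share of each set in bins of 0.25 on the y axis, for 212 Zfp transcripts (purple outline) and 11119 genes of 5 TPM or more in shLuc DMSO (grey), with the medians of 2 gene lists as dashed lines. The members' median was -1.74 and that of the grey set -0.64, and the members lie between the immediate early genes at -4.37 and the ribosomal protein genes at 0.39.

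The lowest mean change over the 4 contrasts on the log2(TPM + 1) scale was that of Zfp36, at -3.56. It encodes tristetraprolin, an RNA-binding protein with CCCH fingers that recruits deadenylases to messages with AU-rich elements. Zfp36 stood at 25.9 and 13.0 TPM in the shYthdf2 DMSO 4 h libraries and 28.5 and 12.8 TPM in those of 8 h, against 0.82 and 0 TPM after 4 h of actinomycin D and 0.53 and 0.67 TPM after 8 h. In shYthdf3 it was at 21.5 and 12.7 TPM and 28.1 and 11.6 TPM in DMSO, and 0.63 and 2.19 TPM, then 0 and 0.94 TPM, in actinomycin D. Every treated library was far under every DMSO library of its arm. The log2 changes were -3.85 ± 0.59 (SE) and -3.66 ± 0.59 at 4 h and 8 h in shYthdf2 and -2.94 ± 0.59 and -3.78 ± 0.59 in shYthdf3, with limma adjusted p from 0.00307 to 0.000166. In each of these DMSO groups the library numbered 1 held more Zfp36 than that numbered 2.

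Zfp503 and Zfp703, a pair of related transcriptional repressors of development, were also among the 10 members with the lowest mean change over the 4 contrasts. Zfp503 fell from 15.7 and 16.2 TPM in DMSO to 0.71 and 1.19 TPM at 4 h, and from 18.2 and 18.8 TPM to 0.15 and 0.58 TPM at 8 h, in shYthdf2. In shYthdf3 it fell from 12.3 and 16.8 TPM to 0.36 and 0.63 TPM at 4 h and from 14.2 and 17.2 TPM to 0.67 and 0.65 TPM at 8 h. The groups did not overlap, and its log2 changes lay between -3.86 and -3.13 (SE 0.345, limma adjusted p at most 6.29e-05). Zfp703 was at 3.43 and 9.22 TPM beside 31.2 and 21.7 TPM in DMSO at 4 h, and at 1.36 and 2.38 TPM beside 35.2 and 32.0 TPM at 8 h, in shYthdf2. In shYthdf3 it was at 1.11 and 2.19 TPM beside 23.3 and 27.6 TPM at 4 h and at 0.67 and 1.01 TPM beside 23.2 and 26.6 TPM at 8 h. Its changes in the 2 arms were not called different (limma adjusted p = 1). It was called lower in all 4 contrasts, by 2.01 to 3.82 on the log2 scale.

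The other members among the 10 lowest were Zfp830, Zfp553, Zfp105, Zfp954, Zfp747, Zfp24 and Zfp574, and each of the 10 was called lower in all 4 contrasts. With a pseudocount of 0.1 in place of 1 the 4 h call in shYthdf2 was lost for Zfp24 (limma adjusted p = 0.0887) and Zfp574 (0.0646). Zfp830, a spliceosome-associated protein in human cells, changed by -3.41 on average over the contrasts. Zfp105 was at 10.1 and 8.67 TPM and 10.4 and 10.4 TPM in the shYthdf2 DMSO libraries and at 0.15, 0.36, 0.11 and 0 TPM in the 4 actinomycin D libraries, the last pair at 8 h. Zfp24, a SCAN-domain factor, kept 13.1% of its DMSO level at 4 h and 4.88% at 8 h in shYthdf2. Zfp747 was listed at 0 TPM in both shYthdf3 libraries at 4 h, where its DMSO libraries held 8.92 and 6.59 TPM. The mean changes of the 10 lowest ran from -3.56 (Zfp36) to -2.91 (Zfp574).

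**Figure D3:**
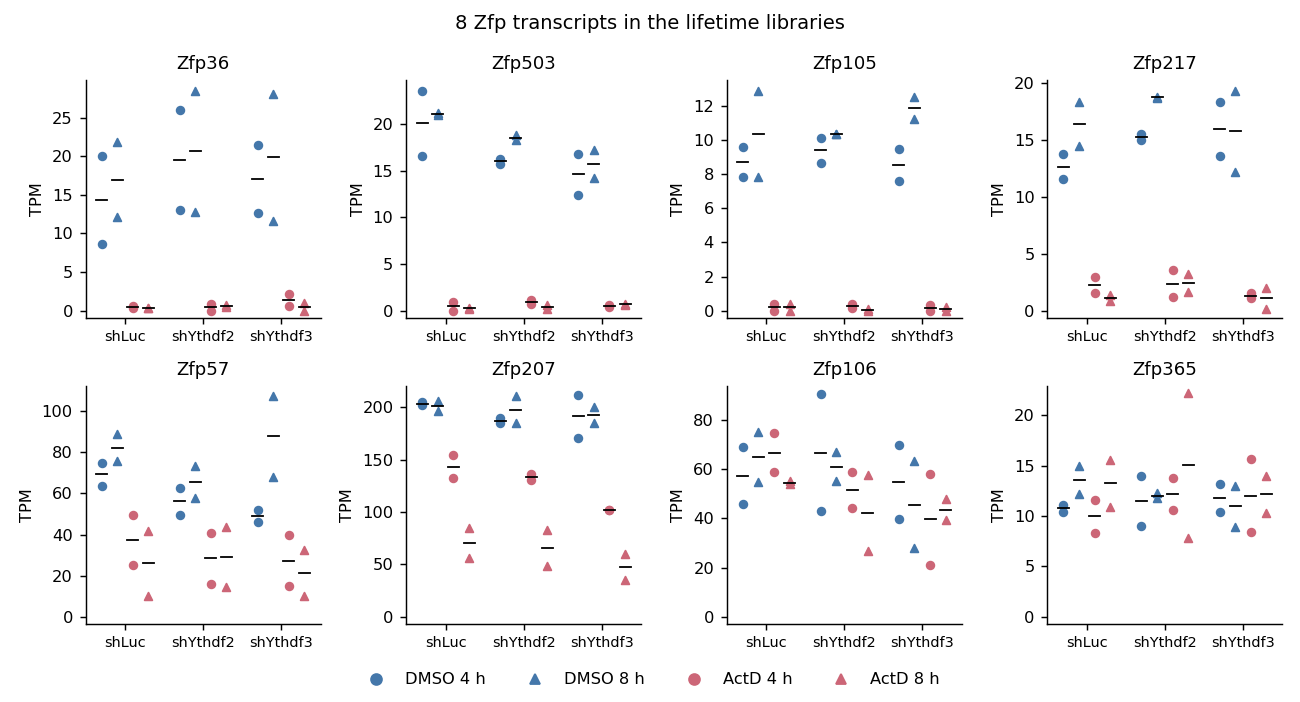
TPM of 8 Zfp transcripts in the 24 lifetime libraries, by hairpin arm, with DMSO in blue and actinomycin D in red, 4 h as circles and 8 h as triangles, each point 1 library and each bar the mean of 2. Zfp36, Zfp503 and Zfp105 lie at or under 2.19 TPM in every treated library, Zfp207 falls in steps from 4 h to 8 h, and the treated and untreated points of Zfp365 overlap in each arm.

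Among members that silence chromatin, the KRAB protein Zfp57, which with Zfp445 protects imprinted regions, was the most abundant of those named here. It stood at 49.8 and 62.5 TPM, and at 73.3 and 58.0 TPM, in the shYthdf2 DMSO libraries of 4 h and 8 h. After actinomycin D it was at 16.2 and 40.7 TPM at 4 h and 14.6 and 43.5 TPM at 8 h. The treated libraries were lower than the untreated ones in that arm, but the 2 treated libraries of each group differed more than 2 times from each other, and the changes of -1.08 and -1.33 did not pass (limma adjusted p = 0.443 and 0.172). In shYthdf3 at 8 h it was lower by 2.16 (SE 0.68, limma adjusted p = 0.0261), a call lost with median-ratio scaling (adjusted p = 0.106), and with the replicate block the change at 8 h in shYthdf2 passed too (adjusted p = 0.0449). Zfp445 changed by -1.66, -1.87, -1.26 and -1.84 and passed in no contrast. Its DMSO libraries ran from 12.6 to 69.1 TPM in shYthdf2, always higher in the library numbered 2, and with the replicate block all 4 changes passed (limma adjusted p 0.000629 to 0.0179). Zfp568, a KRAB repressor of a placental promoter of Igf2, was called lower in 3 of the 4 contrasts, with 35.1 and 44.6 TPM in DMSO and 3.53 and 5.94 TPM in actinomycin D at 8 h in shYthdf2. Zfp809, which binds the primer binding site of murine leukaemia viruses and silences them, was called lower at 8 h in both arms, with 14.8% and 18.1% of its DMSO level left. Zfp638, which acts with the HUSH complex on unintegrated retroviral DNA, and Zfp462, a heterochromatin factor of ES cells, had mean changes of -1.89 and -1.75. Zfp638 was called in no contrast and Zfp462 only at 8 h in shYthdf2 (limma adjusted p = 0.0462), and the libraries of both differed widely by replicate number. With the replicate block Zfp638 passed in all 4 (limma adjusted p 9.73e-06 to 0.0278) and Zfp462 also in both contrasts of shYthdf3.

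Several members are known from pluripotent cells. Zfp296, which binds KLF4 and aids reprogramming, was at 6.8 and 4.07 TPM and 7.41 and 5.97 TPM in the shYthdf2 DMSO libraries. It was at 0.26 and 0.48 TPM after 4 h of actinomycin D and listed at 0 in both libraries after 8 h, and it was called lower in all 4 contrasts (mean change -2.71). Zfp217, a Krüppel-like factor that binds the N6-methyladenosine writer METTL3, fell from 15.5 and 15.0 TPM to 1.16 and 3.55 TPM at 4 h and from 18.6 and 18.8 TPM to 1.64 and 3.18 TPM at 8 h in shYthdf2. All 4 of its contrasts passed, at -2.37, -2.57, -2.88 and -3.15. Zfp143, an activator bound at many promoters, was called lower in all 4 as well (mean change -2.63). Zfp281, which represses Nanog and acts in the exit from pluripotency, had a mean change of -2.24 but passed only at 8 h in shYthdf2 (limma adjusted p = 0.0203). Its DMSO libraries numbered 1 held 4.1 and 7.04 TPM and those numbered 2 held 12.6 and 15.5 TPM, and with the replicate block the other 3 contrasts passed (limma adjusted p 1.05e-05 to 5.97e-05). Zfp148, a widely expressed GC-box factor, passed in 3 contrasts, and Zfp521, a regulator of progenitor fate in fat, blood and brain, in all 4 (mean change -1.93).

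The other members of known role include several that act outside transcription. Zfp622, whose yeast counterpart Rei1 acts in maturation of the large ribosomal subunit, was called lower in all 4 contrasts and kept 19.8% and 14.4% of its DMSO level at 4 h and 9.37% and 9.28% at 8 h in shYthdf2 and shYthdf3. Zfp598, the ubiquitin ligase that senses collided ribosomes, also passed in all 4, but with 64.6% and 56.8% left at 4 h and 44.9% and 41.7% at 8 h. Zfp346, a double-stranded RNA-binding protein, passed in 3 (mean change -1.18). Zfp593, whose yeast counterpart Bud20 also acts on the large ribosomal subunit, had a mean change of -0.57, and Zfp91, a ubiquitin ligase, one of -0.53, and neither passed in any contrast. With the replicate block Zfp91 passed in 3 (limma adjusted p 0.00397 to 0.0352) and Zfp593 in 1. Zfp326, a component of a complex that couples transcription and splicing, and Zfp451, a SUMO ligase, had mean changes of -0.85 and -1.55 and passed in none. Their libraries differed by replicate number: Zfp326 was at 19.9 and 82.1 TPM in the 2 shYthdf2 DMSO 4 h libraries. With the replicate block Zfp451 passed in all 4 contrasts and Zfp326 at 8 h in shYthdf2. Zfp335, a component of a histone methyltransferase complex, Zfp827, a telomere-bound factor, and Zfp64, a factor known from human leukaemia with rearranged MLL, were called lower in all 4 contrasts, by 0.83 to 2.40. The call for Zfp64 holds only for TPM as deposited: at 8 h in shYthdf3 its change of -0.83 became 0.009 with median-ratio scaling, and its other 3 calls were lost. The same scaling ended every call of Zfp598 (changes of -0.38 to -0.25), Zfp346, Zfp148, Zfp809, Zfp281 and Zfp462, 3 of 4 for Zfp827 and 1 each for Zfp335, Zfp568 and Zfp207, all still below 0. With a pseudocount of 0.1 the calls of Zfp143 (4 h in shYthdf2), Zfp281 and Zfp462 (8 h in shYthdf2) and of Zfp148, Zfp296 and Zfp827 (4 h in shYthdf3) were lost, at limma adjusted p of 0.0579 to 0.104. Without the filter on low values those of Zfp809 at 8 h in both arms, Zfp462 at 8 h in shYthdf2, Zfp148 at both hours, Zfp568 at 4 h and Zfp57 at 8 h in shYthdf3 were lost, at 0.0507 to 0.0824.

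Zfp207, which encodes the spindle protein BuGZ, was the most abundant member, at 203 TPM on average in shLuc DMSO. In shYthdf2 it went from 189.5 and 185 TPM to 137 and 130.2 TPM at 4 h and from 185 and 210.5 TPM to 48.7 and 83.3 TPM at 8 h. In shYthdf3 it went from 171 and 212 TPM to 102 and 102 TPM and from 185 and 201 TPM to 35.3 and 60.0 TPM. The drop at 4 h in shYthdf2 was -0.49 ± 0.26 (SE, limma adjusted p = 0.341), and the other 3 passed, at -0.89, -1.61 and -2.04.

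At the other end of the range, the 5 members with the highest mean change were Zfp365, Zfp692, Zfp993, Zfp931 and Zfp106, at 0.09, -0.09, -0.16, -0.35 and -0.36. None of them was called in any contrast. Zfp365, a coiled-coil protein with a role in genome stability, stood at 9.03 and 13.9 TPM and 12.3 and 11.8 TPM in the shYthdf2 DMSO libraries and at 10.7 and 13.8 TPM, then 7.86 and 22.2 TPM, in actinomycin D. In shYthdf3 it was at 10.4 and 13.1 TPM and 8.96 and 13.0 TPM in DMSO, and 8.45 and 15.6 TPM, then 10.3 and 14.02 TPM, in actinomycin D. The treated and untreated libraries overlapped in both arms. Its changes ran from -0.02 to 0.14 with an SE of 0.41, and with median-ratio scaling they were 0.92 and 0.95 at 8 h (limma adjusted p = 0.046 and 0.0371), so a relative rise depends on the scaling. Zfp106, an RNA-binding protein needed for motor neuron maintenance, was at 43.2 to 90.5 TPM in the 4 shYthdf2 DMSO libraries and 26.9 to 58.8 TPM in the 4 treated ones. The libraries of Zfp993 were too uneven for a direction to be read, with 43.1 and 4.43 TPM in the 2 shYthdf3 DMSO 4 h libraries.

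**Figure D4:**
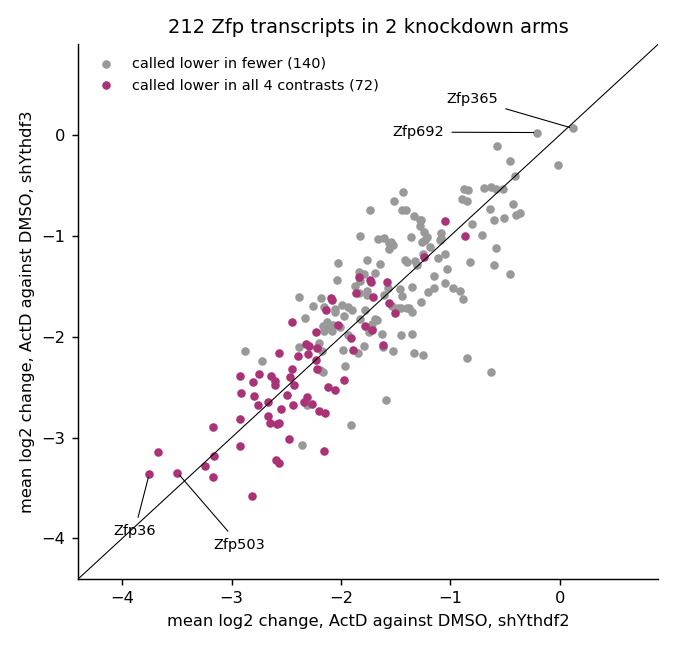
Each point is 1 of 212 Zfp transcripts, with its mean log2 change of actinomycin D against DMSO over 4 h and 8 h in shYthdf2 (x axis) and in shYthdf3 (y axis); the line marks equal values, and the 72 members called lower in all 4 contrasts are purple. The points follow the line in both arms, from Zfp36 and Zfp503 at the lower left to Zfp365 at the upper right.

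On the log2(TPM + 1) scale the change from 4 h to 8 h was smaller than that from DMSO to 4 h. The members' library medians after 4 h of actinomycin D were already 1.37 to 4.43 TPM, where this scale understates a further fall. The part of that in the counts and medians below was not tested. Between 4 h and 8 h of actinomycin D, as the mean of 3 arms, 23 members were called lower and none higher, beside 10.9% of all genes tested and 18.5% of genes of 5 TPM or more called lower and 0.275% of all genes called higher. The members' 10.8% was near the share of all genes. Their median change over these 4 h was -0.33, that of all genes -0.20 and that of genes of 5 TPM or more -0.32. The 6 largest were Zfp428 (-1.32), Zfp330 (-1.24), Zfp637 (-1.16), Zfp512 (-1.12), Zfp207 (-1.08) and Zfp444 (-1.04, a call lost with median-ratio scaling, limma adjusted p = 0.164, and without the filter on low values, 0.082). Zfp428 averaged 12.8 TPM in the 4 h and 4.56 TPM in the 8 h libraries, and Zfp330 14.8 and 5.50 TPM. With the replicate block 49 members were lower, and with median-ratio scaling 7 were lower and 1 higher. The count was 15 without the shYthdf2 8 h library numbered 1, and 14 without the shYthdf3 8 h library numbered 1 or the shYthdf2 4 h library numbered 2.

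The changes in shYthdf2 and shYthdf3 had a Pearson r of 0.835 and a Spearman rho of 0.825 across members, and of 0.88 and 0.895 across 11119 genes of 5 TPM or more. These are descriptions across genes of the same libraries, which share depth and treatment.

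Other zinc finger families of at least 5 TPM in shLuc DMSO lay in the same range. The median change over the 4 contrasts was -2.76 for 9 Klf genes, -2.46 for 6 Zscan genes, -2.11 for 7 Zkscan genes, -2.04 for 30 Zbtb genes and -1.61 for 10 Zc3h genes, whose CCCH fingers bind RNA. Of the Zbtb genes, the largest of these families, 15 and 18 were called lower at 4 h and 25 and 23 at 8 h in shYthdf2 and shYthdf3 and none higher, where 12.9%, 19.8%, 38.3% and 39% of genes of 5 TPM or more were lower. Immediate early genes, a known short-lived group, had a median of -4.37 over 15 genes. Klf2 and Klf4 are in this list, so its median and that of the Klf genes can share genes, and Klf4 was also delivered by retrovirus. Ribosomal protein genes, a known long-lived group, had one of 0.39 over 81 genes. A list of KRAB corepressor and heterochromatin partners had a median change of -0.83, where genes of 5 TPM or more had one of -0.64. The list held 19 genes tested, Zfp57 among them. Of these, 1 and 5 were called lower at 4 h and 7 and 9 at 8 h in shYthdf2 and shYthdf3, beside the same 12.9%, 19.8%, 38.3% and 39%, and none higher. Trim28, the corepressor, went from 298 to 174 TPM at 8 h in shYthdf2 (log2 change -0.77 ± 0.31 SE, limma adjusted p = 0.0781) and from 256 to 130 TPM in shYthdf3 (-0.97 ± 0.31, limma adjusted p = 0.0262). Setdb1, the methyltransferase, went from 22.9 to 5.79 TPM and from 22.1 to 4.995 TPM and passed in both. With median-ratio scaling the order was kept for the members (-1.26), the immediate early genes (-3.83) and the ribosomal protein genes (1.03), while the partners' median was -0.19 and that of genes of 5 TPM or more was -0.05.

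Few members were called between the arms under actinomycin D. There Ythdf2 itself was not called lower in shYthdf2 than in shLuc, nor Ythdf3 in shYthdf3 (limma adjusted p = 0.949 and 0.0538). The few calls therefore cannot show that the hairpins left the members unchanged. The effect of actinomycin D in shYthdf2 minus that in shYthdf3 was called for 0 of 212 members by limma, with 3 at an unadjusted p under 0.05 and with 0 in the fit with a block as well, and for 9 of 19290 genes (0.0259% lower and 0.0207% higher). The same effect minus that in shLuc had a median over members of 0.10 in shYthdf2 and 0.12 in shYthdf3, beside 0.06 and 0.02 over all genes. Both of those differences are described only, and they share the shLuc libraries.

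Within actinomycin D alone, as the mean of 4 h and 8 h, 1 member (0.472%) was called higher in shYthdf2 than in shLuc and none lower. Of all genes 0.928% were lower and 1.88% higher. That member, Zfp707, was at 0, 0, 0.17 and 0 TPM in the 4 shLuc libraries and at 1.02, 1.73, 0.8 and 2.73 TPM in those of shYthdf2 (log2 difference 1.25 ± 0.26 SE, limma adjusted p = 0.0162). The levels are low in both arms, and the call was lost without the shLuc 8 h, shYthdf2 4 h or shYthdf2 8 h library numbered 2. In shYthdf3 2 members (0.943%) were lower than in shLuc and 1 (0.472%) was higher, beside 1.49% and 0.658% of all genes. Zfp422 was at 12.6, 15.9, 7.17 and 9.64 TPM in shLuc and at 3.58, 5.82, 1.8 and 1.82 TPM in shYthdf3 (log2 difference -1.58 ± 0.21 SE, limma adjusted p = 0.00063). Zfp664 was at 29.9, 47.0, 12.7 and 28.1 TPM against 7.94, 12.9, 3.26 and 8.54 TPM (-1.72 ± 0.37 SE, limma adjusted p = 0.0234). Zfp651 went the other way, at 7.14, 13.0, 6.72 and 2.76 TPM in shLuc and 17.6, 22.4, 16.6 and 16.3 TPM in shYthdf3 (1.33 ± 0.25 SE, limma adjusted p = 0.00835). The values are in the order 4 h, then 8 h, and the groups did not overlap within an hour. Zfp664 and Zfp422 were already lower in DMSO, where Zfp664 ran from 46.2 to 73.1 TPM in shLuc and 17.2 to 32.6 TPM in shYthdf3, and Zfp422 from 24.2 to 35.9 TPM against 15.3 to 18.6 TPM. With the replicate block 3 members were called in shYthdf2 and 11 in shYthdf3.

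The members are unevenly placed in the genome. RefSeq places 211 of them on assembly GRCm38.p6, 49 (23.2%) on chromosome 7 and 28 (13.3%) on chromosome 17, where 7.58% and 4.92% of genes of 5 TPM or more lie. For 114 members 2 or more other Zfp genes lie within 500 kb, and 75 have none within that distance. The median change under actinomycin D was -1.84 (quartiles -2.29 and -1.29) for the first and -1.66 (quartiles -2.22 and -1.24) for the second, ranges that overlap almost wholly. Members on chromosome 7 had a median of -2.13 and those on chromosome 17 one of -1.50. Gene length and change had a Pearson r of 0.231 across 211 members.

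RefSeq promoter sequences, each the 250 bases before a start site and the 50 after, were matched to 169 members by symbol, with the first listed start taken for the 34 members that have more than 1. Accessible chromatin was mapped by ATAC-seq as 1 peak list for each arm and day of the time course. In the 12 lists 78.7 to 85.8% of the 169 promoters overlapped a peak, beside 84.4 to 89.4% of promoters of genes of 5 TPM or more and 37.1 to 41.8% of all promoters in the table. There were 124 members with a peak in all 12 lists and 17 with none in any. The day 1 peak list for TEAD2, a transcription factor of the Hippo pathway, overlapped 38 of the 169 promoters (22.5%), beside 27.5% and 10.6% in the same reference sets. The members' promoters had a median GC content of 55.7%, against 61.7% and 52.7%.

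Promoters are printed for the member with the lowest mean change (Zfp36), one listed at 0 in MEFs (Zfp105), the most abundant member (Zfp207) and the one with the highest mean change (Zfp365), from RefSeq on GRCm38.p6, 5′ to 3′ on the strand of the gene. Capitals mark matches, on either strand, to any of 3 motifs, and each promoter shown holds matches to at most 1 of them. CCGGAAG is the core of ETS-type sites. TATAAA is a core promoter element bound by TBP. GGAATG is the core of sites bound by TEAD factors. CCGGAAG is held by 23.7% of the members' promoters, 20.4% of those of genes of 5 TPM or more and 9.12% of all promoters, TATAAA by 6.51%, 6.44% and 14.2%, and GGAATG by 11.8%, 11.6% and 14.6%. Zfp36 lies at chr7:28379179-28379478 on the minus strand, with an ATAC peak in 11 of 12 lists and no TEAD2 peak. Zfp105 lies at chr9:122922828-122923127 on the plus strand and Zfp207 at chr11:80383029-80383328 on the plus strand, both with an ATAC peak in 12 lists and no TEAD2 peak. Zfp365 lies at chr10:67912613-67912912 on the minus strand, with an ATAC peak in 12 lists and a TEAD2 peak.
Zfp36: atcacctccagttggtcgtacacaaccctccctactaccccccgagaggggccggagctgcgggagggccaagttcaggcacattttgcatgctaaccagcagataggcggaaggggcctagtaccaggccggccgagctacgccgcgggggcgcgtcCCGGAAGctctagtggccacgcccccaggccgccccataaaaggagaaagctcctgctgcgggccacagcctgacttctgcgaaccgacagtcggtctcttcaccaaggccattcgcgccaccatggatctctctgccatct
Zfp105: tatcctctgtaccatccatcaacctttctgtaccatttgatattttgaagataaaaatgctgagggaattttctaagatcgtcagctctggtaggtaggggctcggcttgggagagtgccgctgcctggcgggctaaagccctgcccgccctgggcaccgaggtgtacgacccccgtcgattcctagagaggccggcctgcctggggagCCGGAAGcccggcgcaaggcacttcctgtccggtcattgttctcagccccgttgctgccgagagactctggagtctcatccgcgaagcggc
Zfp207: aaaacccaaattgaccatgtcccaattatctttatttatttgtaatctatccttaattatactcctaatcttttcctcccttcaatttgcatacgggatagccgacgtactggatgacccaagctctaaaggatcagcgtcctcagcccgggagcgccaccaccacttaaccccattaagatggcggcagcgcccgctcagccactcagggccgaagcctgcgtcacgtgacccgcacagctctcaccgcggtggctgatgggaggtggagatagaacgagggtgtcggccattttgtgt
Zfp365: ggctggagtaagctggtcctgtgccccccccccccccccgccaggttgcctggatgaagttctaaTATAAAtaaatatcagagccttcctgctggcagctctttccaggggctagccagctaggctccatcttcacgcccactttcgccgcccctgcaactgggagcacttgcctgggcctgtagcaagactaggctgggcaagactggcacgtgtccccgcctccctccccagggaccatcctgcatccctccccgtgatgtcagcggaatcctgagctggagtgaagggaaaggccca
Each match is a match of letters in this window and nothing more.

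Few members were called between day 1 and day 7 of untreated reprogramming in the fit without a block. Libraries numbered 1 and 2 stood apart here too, with mitochondrial shares of 5.2 and 8.7% at day 1 and 5.9 and 8.0% at day 7 in shLuc. The members' summed level was 2810 to 5396 TPM in the 24 time course libraries, and their median change from day 1 to day 7 in shLuc was 0.22, beside 0.01 over all genes. At day 7 4 members (1.89%) were higher than at day 1 and none lower, beside 3.92% of all genes higher and 2.9% lower. Zfp41 rose from 3.63 and 5.09 TPM to 27.0 and 20.3 TPM (log2 change 2.20 ± 0.47 SE, limma adjusted p = 0.00826). Zfp961 rose from 7.92 and 9.94 TPM to 38.6 and 41.4 TPM, Zfp553 from 14.6 and 15.6 TPM to 40.9 and 43.8 TPM, and Zfp219, a SOX9 partner in cartilage, from 22.2 and 31.1 TPM to 60.5 and 55.1 TPM. The groups did not overlap for any of the 4. Zfp553 was among the 10 members with the lowest mean change under actinomycin D. With the replicate block 13 were higher and 2 lower, and without the day 1 library numbered 1 or the day 7 library numbered 2 the count was 0 and 1. The 10 fibroblast markers summed to 1709 to 3508 TPM at day 1 and 608 to 1060 TPM at day 7, and the 10 pluripotency markers to 3.73 to 43.5 TPM and 164 to 363 TPM; their part in these changes was not tested.

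Several members already described moved between the days without passing in that comparison. Zfp36 was at 33.0 and 48.6 TPM at day 1, 110 and 253 TPM at day 3, 57.2 and 94.2 TPM at day 5 and 23.9 and 71.2 TPM at day 7 in shLuc. Zfp57 was at 64.5 and 56.2 TPM at day 1 and 130 and 137 TPM at day 7, and Zfp296 at 7.6 and 5.31 TPM and then 18.4 and 22.4 TPM. For these last 2 the libraries of the 2 days did not overlap, but neither change passed over all genes.

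As the mean of 4 days, 3 members (1.42%) were called lower with shYthdf2 than with shLuc and none higher, beside 1.46% and 2.08% of all genes. Of genes of 5 TPM or more 2.23% and 3.26% were called, so the members' shares were not above those of other genes. The 3 members were Zfp61 (-0.69 ± 0.18 SE, limma adjusted p = 0.0435), Zfp263 (-0.59) and Zfp13 (-0.54). The call of Zfp61 was lost without the filter on low values (limma adjusted p = 0.0522) and with median-ratio scaling (0.069). In 14 of 16 fits that each left out 1 library this count was 0 or 1. In shYthdf3 3 members (1.42%) were lower and 2 (0.943%) higher, beside 2.5% and 2.76% of all genes. The shares of genes of 5 TPM or more were 4% and 3.01%. Zfp664 averaged 52.0 TPM in shLuc and 23.4 TPM in shYthdf3 over the 4 days (-1.21 ± 0.25 SE, limma adjusted p = 0.0107), Zfp41 12.3 and 5.13 TPM (-1.10) and Zfp61 29.7 and 15.1 TPM (-0.88). Zfp982 averaged 3.58 and 9.92 TPM (1.26) and Zfp367 16.6 and 30.0 TPM (0.89). The calls of both arms share the shLuc libraries. With the block 10 members were called in shYthdf2 and 18 in shYthdf3, and without the shLuc day 7 library numbered 2 the count in shYthdf3 was 3.

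The established cell types differed more. Of the 212 members 104 were lower and 42 higher in ES cells than in MEFs, both with shLuc, where 32.9% of all genes were lower and 30% higher and 41.7% and 29.7% of genes of 5 TPM or more. The members' share lower was 49.1% and their share higher 19.8%. Members had to reach 5 TPM in day 1 cultures made from MEFs, which leaves out genes low in such cultures. That choice favours calls of lower in ES cells, for the members and for the genes of 5 TPM or more. ES cells and MEFs also differed in passage and medium, and a strain is given for the ES cells only, so none of these can be told apart from the cell type. The fibroblast markers summed to 4321 to 6255 TPM in MEFs and 13.3 to 20.9 TPM in ES cells, and the pluripotency markers to at most 1.64 TPM and to 5473 to 6922 TPM, as the labels have it. With median-ratio scaling 89 members were lower and 56 higher.

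The 2 largest decreases in ES cells were those of Zfp703 and Zfp503. Zfp703 was at 63.0 and 69.3 TPM in MEFs and 1.12 and 1.49 TPM in ES cells (log2 change -4.87 ± 0.36 SE, limma adjusted p = 1.22e-07), and Zfp503 at 33.6 and 31.9 TPM and 0.25 and 0.07 TPM (-4.87 ± 0.16). Zfp521 was at 16.1 and 16.6 TPM in MEFs and 0.04 and 0.05 TPM in ES cells, and Zfp36 at 19.4 and 22.7 TPM and 1.95 and 1.81 TPM. Zfp971 and Zfp651 completed the 6 largest decreases, at -3.39 and -3.22. Zfp365, the member with the highest mean change under actinomycin D, was at 32.7 and 34.6 TPM in MEFs and 8.2 and 8.36 TPM in ES cells.

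The 6 largest increases were those of Zfp990, Zfp982, Zfp296, Zfp105, Zfp993 and Zfp979. Zfp296 was at 2.94 and 1.96 TPM in MEFs, 55.4 and 54.7 TPM in ES cells and 79.8 and 96.9 TPM in iPS cells (log2 change from MEFs to ES cells 4.04 ± 0.16 SE, limma adjusted p = 3.83e-10). Zfp105 was listed at 0 in both shLuc MEF libraries and at 12.4 and 12.1 TPM in ES cells. It was listed at 0 in the other 4 MEF libraries too, and at 5.63 to 12.3 TPM in the 6 day 1 OKS libraries of the time course. Zfp57 was at 40.1 and 46.1 TPM in MEFs, 377 and 419 TPM in ES cells and 451 and 418 TPM in iPS cells (3.18 ± 0.13 SE). Trim28 averaged 407 TPM in MEFs and 1507 TPM in ES cells (1.89 ± 0.09 SE, limma adjusted p = 1.89e-09), while Setdb1 did not pass (-0.18, limma adjusted p = 0.19). Of 20 corepressor and heterochromatin partners, Zfp57 among them, 11 were higher and 4 lower, beside 29.7% and 41.7% of genes of 5 TPM or more. The largest change among the partners was a decrease, that of Chd3 from 186 to 10.0 TPM (-4.11, limma adjusted p = 7.45e-08).

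**Figure D5:**
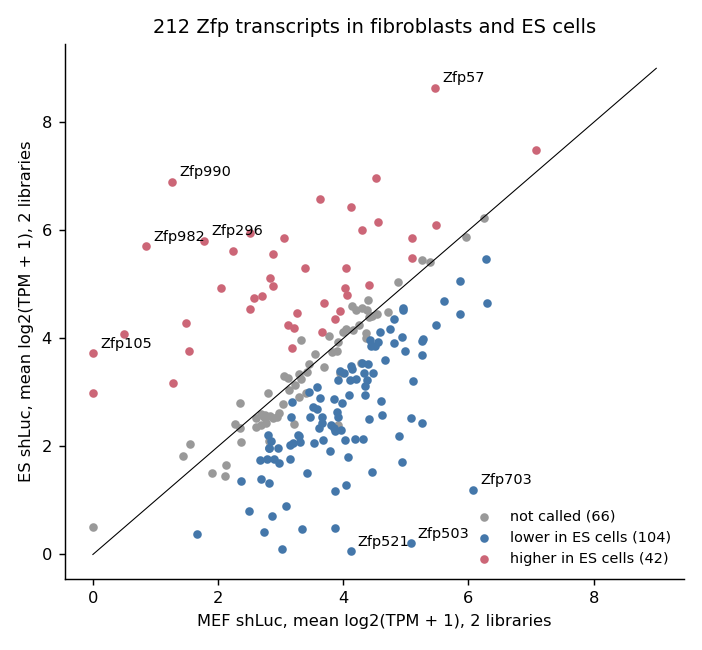
Each point is 1 of 212 Zfp transcripts, with its mean log2(TPM + 1) over the 2 shLuc libraries of MEFs (x axis) and of ES cells (y axis); the line marks equal levels, 104 members called lower in ES cells are blue, 42 called higher red and 66 not called grey. Zfp703, Zfp503 and Zfp521 lie near the bottom, and Zfp990, Zfp982, Zfp296 and Zfp57 far above the line.

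Of these, Zfp990, Zfp993, Zfp982 and Zfp979 lie in one region of chromosome 4, which was examined after their values were seen. Between 145510759 and 147849126 on that chromosome, from the start of Zfp990 to the end of Zfp933, lie 8 members. The window was thus drawn by the members themselves. Of the 8, 7 were higher in ES cells, beside 29.7% of genes of 5 TPM or more: Zfp990 (5.64), Zfp982 (4.87), Zfp993 (3.57), Zfp979 (3.44), Zfp992 (3.38), Zfp991 (2.88) and Zfp984 (2.68). Zfp990 averaged 120 TPM in ES cells and 1.46 TPM in MEFs. The last, Zfp933, averaged 2.16 and 3.40 TPM and did not pass (log2 change -0.48, limma adjusted p = 0.069). Of the other 7 members on chromosome 4, 3 were lower and 1, Zfp593, was higher. This region is a known cluster of similar genes, where reads shared between copies may have been divided.

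Averaged over ES cells, iPS cells and MEFs, the hairpins changed the members by small amounts. With shYthdf2 6 (2.83%) were lower and 2 (0.943%) higher than with shLuc, beside 4.74% and 3.84% of all genes. Of genes of 5 TPM or more 6.84% and 4.67% were called, so the members' shares were not above those of other genes. The members called lower were Zfp365 (-0.48), Zfp553 (-0.38), Zfp296 (-0.36), Zfp384 (-0.26), Zfp219 (-0.24) and Zfp740 (-0.18), and those called higher Zfp395 (0.37) and Zfp710 (0.39). With shYthdf3 7 (3.3%) were lower and none higher, beside 3.83% and 1.85% of all genes. Of genes of 5 TPM or more 5.17% and 2.24% were called. Among the 7 members were Zfp365 (-0.62 ± 0.10 SE, limma adjusted p = 0.00474), Zfp141 (-0.42), Zfp960 (-0.35), Zfp282 (-0.34), Zfp664 (-0.33) and Zfp574 (-0.24). Without the filter on low values the calls of Zfp384, Zfp219, Zfp740 and Zfp710 with shYthdf2 were lost, and those of Zfp664 and Zfp960 with shYthdf3 (limma adjusted p 0.0505 to 0.0619). Median-ratio scaling ended those of Zfp219 (0.0969), Zfp960 (0.0515) and Zfp574 (0.0665), a pseudocount of 0.1 that of Zfp296 (0.0626), and the replicate block those of Zfp384, Zfp219, Zfp740 and Zfp664 (0.0539 to 0.0578). Zfp365 was at 8.2 and 8.36 TPM with shLuc, 4.72 and 6.95 TPM with shYthdf2 and 5.03 and 6.6 TPM with shYthdf3 in ES cells, and the 2 calls share the shLuc libraries. Zfp664 was thus called lower with shYthdf3 in 3 separate experiments, by 1.72 within actinomycin D, 1.21 in the time course and 0.33 in the cell types. Leaving out 1 library moved the count by over 1.5 times in 10 of 12 fits with shYthdf2, down to 3, and in 7 of 12 with shYthdf3, to between 3 and 12.

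With shTead2 at day 1, 0 of 212 members were called by limma, 4 had an unadjusted p under 0.05, and the fit with a block called 0 as well. Of 14783 genes tested 0.00676% were called lower and 0.0812% higher, so this design of 2 libraries against 2 called little of anything. Tead2 itself changed by -1.44 (limma adjusted p = 0.213). The members' median change was -0.12, beside -0.06 over all genes.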

How the data were processed

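RNA was measured by polyA RNA-seq in 70 libraries of 84 samples. The authors deposited TPM per gene, made with RSEM and mm10 per the submitters' processing notes, which give no versions, and MACS2 peak lists for ATAC-seq and TEAD2 ChIP, used here by position only. TPM holds no read count, so depth is unknown. The members, gene lists and motifs were chosen with earlier results of these data known.

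Genes of at least 1 TPM in 2 libraries of an experiment were tested on log2(TPM + 1) with limma 3.58.1 in R 4.3.3 (trended prior, 1 mean per group, 1 fit per experiment), with Benjamini-Hochberg adjustment over all genes kept and calls at 0.05. The fit was tested on simulated data. Alternatives were a pseudocount of 0.1, no filter, a filter of 5 TPM, median-ratio scaling, a replicate block and leaving out each library. Deviations of same-numbered libraries correlated for every pair of groups, at 0.122 to 0.388 for the lifetime libraries and 0.276 to 0.497 for the time course. The numbers were thus read as pairing in both. Calls given without a named setting are from the fit without a block, which ignores that pairing. A member not called there may pass with the block.

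Named genes were members of known role, the 10 lowest and 5 highest mean changes under actinomycin D, and up to 6 called members per direction elsewhere. A spike-in table with 24 columns not tied to samples was not used. Protein classes of the members were not analysed here.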

Additional observations from a re-analysis of the deposited data

Results flagged for a closer look

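Of 9 tests that compared an effect between groups, 1 member passed in 1 of them, where 210 of 17985 genes (1.17%) passed. With shYthdf2 against shLuc, Zfp574 was lower in ES cells, at 12.9 and 12.5 TPM against 19.7 and 19.4 TPM, and higher in MEFs, at 16.4 and 15.7 TPM against 13.5 and 13.8 TPM. The effect in ES cells minus that in MEFs was -0.8 on the log2 scale (SE 0.134, limma adjusted p = 0.0182 over all genes), and the libraries with and without the hairpin did not overlap in either cell type. Zfp574 was among the 10 members with the lowest mean change under actinomycin D.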

How the results depend on the processing

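All counts are of 212 members, and no share of all genes under the same setting is set beside them. With the replicate block the count was 134 (shYthdf2) and 156 (shYthdf3) for actinomycin D at 4 h, 49 for 8 h against 4 h, 3 and 11 for shYthdf2 and shYthdf3 within actinomycin D, 15 for day 7 against day 1, and 10 and 18 for the hairpins in the time course. In the cell types, where same-numbered libraries did not deviate together (correlations of -0.126 to 0.074), the block gave 5 for shYthdf2, and for shTead2 (-0.022) it gave 0. With median-ratio scaling the count was 53 for 4 h in shYthdf2, 8 for 8 h against 4 h, 5 for shYthdf3 within actinomycin D, and 5 and 8 for the hairpins in the time course, and the shLuc medians were -1.21 and -1.53. A pseudocount of 0.1 gave 2 and 6 for the hairpins within actinomycin D and shLuc medians of -1.98 and -2.83. A filter of 5 TPM gave 2 for shYthdf2 within actinomycin D and 8 for shYthdf3 in the time course, and no filter gave 4 for shYthdf2 in the cell types. Zfp64 at 8 h in shYthdf3 changed sign, to 0.009, with median-ratio scaling. The cause of these shifts was not tested.

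Leaving out 1 library gave 36 to 61 and 90 to 130 for 4 h and 8 h in shYthdf2, 54 to 83 and 85 to 129 in shYthdf3, 14 to 30 for 8 h against 4 h, 0 to 2 and 2 to 4 for the hairpins within actinomycin D, 0 to 4 for day 7 against day 1, 0 to 3 and 3 to 7 for the hairpins in the time course, 126 to 129 for ES cells against MEFs, 3 to 7 and 3 to 12 for the hairpins in the cell types, and 0 for shTead2 and for the difference between the hairpins' arms. The shLuc medians ran from -1.997 to -1.26 at 4 h and -2.58 to -1.85 at 8 h. Of 200 values for single genes, median-ratio scaling left 168 on the same side of the threshold, a pseudocount of 0.1 191, no filter 185, a filter of 5 TPM 197 and the block 171. Fits without 1 library, which leave 1 library in a group, are not in this tally, and calls of single genes were lost in them too. Depth is unknown, so the precision of low TPM cannot be given.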
